A study of Mus musculus with 6 samples.

Results

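Amino acid transporter genes of 7 solute carrier families were followed through FGF8 pretreatment and differentiation of brown preadipocytes. Members were chosen by gene symbol: every symbol in the count files that reads Slc1a, Slc3a, Slc6a, Slc7a, Slc36a, Slc38a or Slc43a followed by a number was taken, apart from the creatine transporter gene Slc6a8. This gave 66 of the 26264 listed symbols. Of these, 62 are genes of the families themselves, and 4 (Slc6a19os, Slc7a6os, Slc36a1os and Slc36a3os) are named for their place on the opposite strand and are described separately. The families contributed 7 genes (SLC1), 2 genes (SLC3), 20 genes (SLC6), 15 genes (SLC7), 4 genes (SLC36), 11 genes (SLC38) and 3 genes (SLC43).

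The data are bulk RNA sequencing of 6 libraries, with each of 2 treatments sampled once on each of 3 days. Wild-type Bl6N brown preadipocytes, immortalized with SV40 large T antigen after isolation from the stromal vascular fraction of interscapular brown fat, received FGF8 (5.5 nM) for 48 h or were left untreated. They were harvested at the end of this pretreatment (day 0), or on day 3 or day 9 of a differentiation that began with insulin, T3, IBMX, dexamethasone, indomethacin and rosiglitazone and went on with insulin, T3 and rosiglitazone, which both treatment groups received alike. Day 9 is labelled D7, as 2 days of induction preceded 7 days of differentiation medium. The labels' growth protocol describes primary white cells, whereas titles and design name the immortalized brown cells used here. The number of immortalized lines behind the libraries is not given, so the values describe only the cells sampled.

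Amino acid transporters differ in substrate, in direction and in location. Members of SLC1 and SLC38 couple uptake of glutamate, glutamine and other neutral amino acids to sodium. The heavy subunit 4F2hc, encoded by Slc3a2, carries SLC7 light subunits to the cell surface, where each light subunit exchanges 1 class of amino acid for another, while the CAT proteins of SLC7 work without a heavy subunit. SLC36 proteins move small amino acids with protons, and LAT3 and LAT4 of SLC43 let large neutral amino acids pass by facilitated diffusion. Several of these genes are known targets of ATF4, the transcription factor of the amino acid response, and PAT2, encoded by Slc36a2, is known as a surface marker of brown adipocytes.

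The libraries held 16403254 to 38551551 counts. Levels are given as normalized counts, meaning counts divided by median-of-ratios size factors, and as normalized counts per kb of exon where different genes are compared. With 1 library per condition, FGF8 and untreated cells of the same day have no replicate check and no p-value is given for that comparison. A gene was counted as higher or lower at a 2-fold difference or more, provided that the pair averaged at least 20 normalized counts. The interval beside a log2 fold change is an exact (Clopper-Pearson) interval at 95% for the count ratio, and covers counting error only. Adipocyte markers checked the labels: their summed level was 3819 to 8843 normalized counts in the day 0 libraries and 385843 to 752489 in those of day 3 and day 9. Preadipocyte markers summed to 133064 normalized counts in untreated and 33698 in FGF8-treated cells on day 0, to 39307 and 10721 on day 3 and to 31027 and 7142 on day 9. Macrophage markers summed to 140 to 281 normalized counts in a library. Of this list, Cd14 averaged 97.9, Cd68 74.9 and Csf1r 24.4 normalized counts, while Adgre1 was at 0 in all 6 libraries.

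Of the 62 genes, 25 averaged at least 100 normalized counts across the 6 libraries, 6 had a mean of 20 to 100, and 31 had a mean under 20. No count was recorded for 4 genes, Slc7a9, Slc7a12, Slc38a8 and Slc38a11. The other genes under a mean of 20 reached at most 41 counts in any library. They include the glutamate transporters Slc1a1, Slc1a2, Slc1a6 and Slc1a7, the heavy subunit gene Slc3a1, the SLC7 genes Slc7a4, Slc7a13, Slc7a14 and Slc7a15, and Slc36a3, Slc38a3 and Slc38a5. In the SLC6 family they include Slc6a2, Slc6a3, Slc6a4, Slc6a5, Slc6a7, Slc6a11, Slc6a12, Slc6a14, Slc6a15, Slc6a16, Slc6a18, Slc6a20a, Slc6a20b and Slc6a21, many of which encode carriers of neurotransmitters. Expression at a mean of 20 or more was found for 9 of 15 SLC7 genes, 7 of 11 SLC38 genes and all 3 SLC43 genes, against 5 of 20 SLC6 genes.

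**Figure D1:**
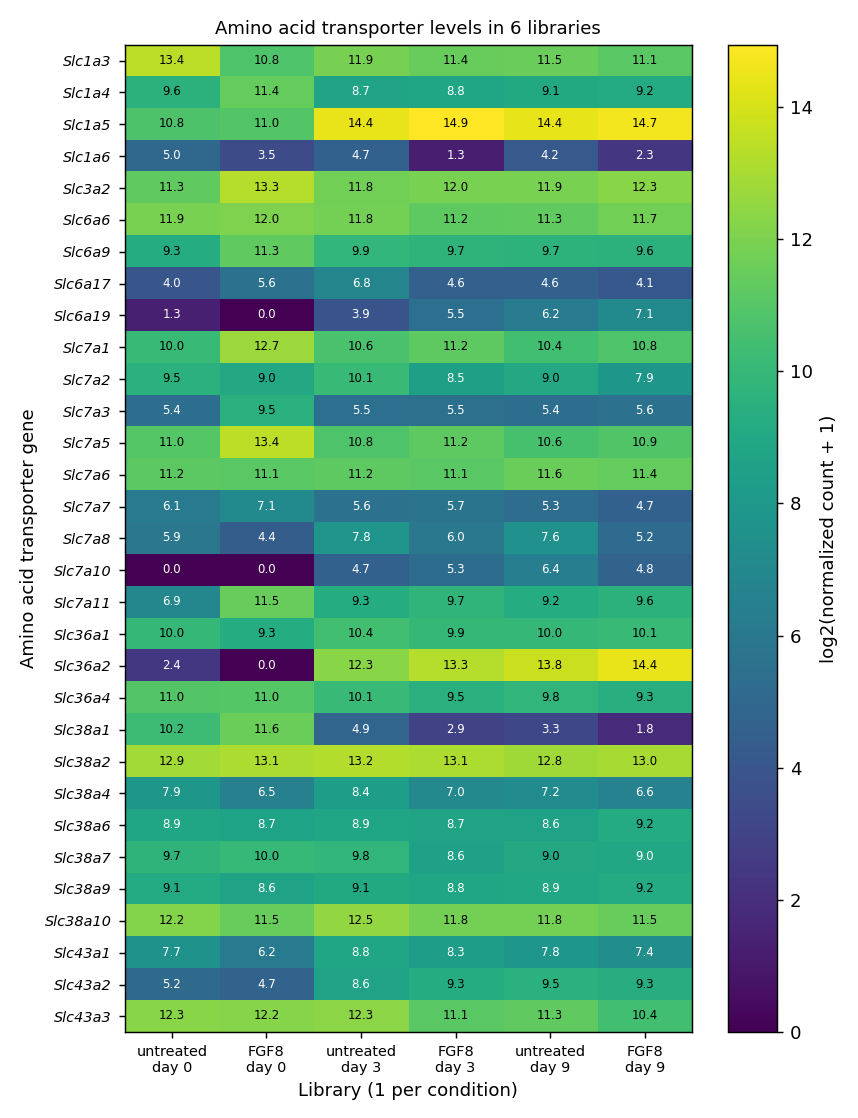
Levels of 31 amino acid transporter genes (rows) in the 6 libraries (columns), as log2(normalized count + 1) printed in each cell and shown by color. Slc7a11, Slc7a3, Slc7a5 and Slc3a2 stand out in the FGF8 library of day 0, Slc1a5 and Slc36a2 in the libraries of day 3 and day 9, and Slc38a1 in those of day 0.

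At day 0, directly after FGF8, 10 of the 28 members with enough counts were 2-fold or more above untreated in the FGF8 library and 5 were at least 2-fold lower. Over all 12657 genes with enough counts, 7.27% were higher and 10.8% were lower by the same rule. The higher members were Slc7a11, Slc7a3, Slc7a1, Slc7a5, Slc3a2, Slc6a9, Slc1a4, Slc6a17, Slc38a1 and Slc7a7. The lower ones were Slc1a3, Slc1a6, Slc7a8, Slc43a1 and Slc38a4. The median log2 fold change of the 28 members was 0.08, beside 0.05 over all genes.

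Slc7a11 encodes xCT, the light subunit that brings in cystine in exchange for glutamate, and lies on chromosome 3 of GRCm39 from 49846975 to 50398070 on the minus strand. On day 0 it had 120.4 normalized counts without and 2870.3 with FGF8, then 616 and 859 on day 3 and 598 and 767 on day 9. The FGF8 library of day 0 was the highest of the 6 and the untreated library of day 0 the lowest. The log2 fold change was 4.56 on day 0 (interval 4.26 to 4.91), 0.48 on day 3 (0.33 to 0.63) and 0.36 on day 9 (0.22 to 0.49). In untreated cells the level on day 3 was 5.11-fold that of day 0 (interval 4.04 to 6.54).

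The promoter of Slc7a11 was read for the amino acid response element, the motif bound by ATF4 with its partners, as TGATGNAA on either strand in the 250 bases before and 50 bases after the start of the canonical transcript in the GENCODE annotation. For Slc38a1 this start lies inside the gene's outer bounds, since other transcripts begin further upstream, and the matched stretch is in introns of those transcripts. Slc7a11 held a match on each strand, starting 65 and 46 bases upstream of its start, with 11 bases between them. Slc38a1 was the other member with a match, 56 bases upstream. The stretches are shown because both genes were higher after FGF8 on day 0, with Chac1, a gene of the amino acid response, for comparison, and capitals mark the motif or its complement.
Slc7a11, chr3:50398090-50398140, minus strand: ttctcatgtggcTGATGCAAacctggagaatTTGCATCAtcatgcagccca
Slc38a1, chr15:96540315-96540346, minus strand: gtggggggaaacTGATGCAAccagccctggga
Chac1, chr2:119181518-119181549, plus strand: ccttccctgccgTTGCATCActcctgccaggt
The motif was present in 2 of 62 members (3.23%), beside 615 of 19073 promoters of all protein-coding genes in the files (3.22%) and 6 of 24 promoters of the amino acid response list (25%). Introns, distal elements and other spellings of the motif were not searched.

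Slc3a2 encodes 4F2hc (CD98), the heavy subunit that xCT and other light subunits use, and lies on chromosome 19 from 8684245 to 8701108. Its level was 2534 normalized counts in untreated and 10123 in FGF8-treated cells on day 0, 3478 and 3966 on day 3, and 3948 and 5069.5 on day 9. The FGF8 library of day 0 was thus above all others, and the log2 fold change went from 2.00 on day 0 (interval 1.92 to 2.07) to 0.19 on day 3 and 0.36 on day 9. Slc3a2 overlaps the noncoding gene Snhg1 on the other strand, and whether the counting used strand is not given in the sources used here.

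Slc7a5 encodes LAT1, the light subunit for leucine and other large neutral amino acids, and lies on chromosome 8 from 122607884 to 122634433. It had 2021 and 11106 normalized counts on day 0 (untreated, then FGF8), 1798 and 2391 on day 3, and 1543 and 1915 on day 9. The FGF8 library of day 0 stood alone, and the other 5 libraries lay between 1543 and 2391. Its log2 fold change was 2.46 on day 0 (interval 2.38 to 2.54), 0.41 on day 3 and 0.31 on day 9.

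Per kb of exon, the 6 light subunits of 4F2hc summed to 913 normalized counts per kb in untreated and 3444 in FGF8-treated cells on day 0, and to 906 to 1034 in the 4 later libraries. Slc7a5 made up 57.6% of this sum in untreated cells on day 0 and 84.0% after FGF8. It made up 42.2% to 60.2% of the sum later. The ratio of the summed light subunits to Slc3a2, again per kb, was 1.68 and 1.59 on day 0, 1.22 and 1.22 on day 3, and 1.13 and 0.902 on day 9. The summed light subunits and the heavy subunit were thus both higher after FGF8 on day 0. Of the single light subunits, Slc7a5, Slc7a7 and Slc7a11 were higher, Slc7a6 was level, Slc7a8 was lower and Slc7a10 had 0 counts.

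Slc7a6 encodes y+LAT2, a light subunit that exchanges cationic for neutral amino acids. It had 2355 and 2228 normalized counts on day 0, 2369 and 2193 on day 3, and 3107 and 2741 on day 9. Its log2 fold changes lay between -0.18 and -0.08, and no library stood apart. Slc7a7, which encodes the related y+LAT1, had 67.6 and 140.8 normalized counts on day 0, 47.1 and 52.6 on day 3, and 39.8 and 24.4 on day 9. FGF8 over untreated gave Slc7a7 a log2 fold change of 1.05 on day 0 (interval 0.55 to 1.59) and -0.68 on day 9 (-1.40 to -0.04), and the gene overlaps Oxa1l on the other strand.

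Slc7a8 encodes LAT2, an exchanger of neutral amino acids that also pairs with 4F2hc, and lies on chromosome 14 from 54959630 to 55019649. It had 60.2 normalized counts in untreated and 20.5 in FGF8-treated cells on day 0, 223 and 62.5 on day 3, and 187 and 36.6 on day 9. The FGF8 library was the lower one on each day. Log2 fold changes in day order came to -1.51 (interval -2.49 to -0.69), -1.82 (interval -2.22 to -1.46) and -2.32 (interval -2.84 to -1.89), and Slc7a8 was the only member that passed the 2-fold rule on all 3 days. LAT1 and LAT2 share substrates, and on day 0 their transcripts lay on opposite sides of the untreated level.

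The cationic amino acid transporters take up arginine and lysine. Slc7a1 (CAT1; chromosome 5 from 148264220 to 148336848) had 1056 and 6534 normalized counts on day 0, 1604 and 2410 on day 3, and 1391 and 1808 on day 9, with log2 fold changes of 2.63 (interval 2.52 to 2.74), 0.59 and 0.38. Slc7a3 (CAT3; chromosome X from 100122745 to 100129631) had 41.1 and 709 normalized counts on day 0, 43.3 and 44.2 on day 3, and 41.9 and 48.0 on day 9. Its 17.2-fold difference on day 0 was seen in the FGF8 library of that day, while the remaining libraries lay between 41.1 and 48.0. Slc7a2 (CAT2; chromosome 8 from 41315431 to 41375345) showed another order, with 743 and 517 normalized counts on day 0, 1114 and 361 on day 3, and 517 and 235 on day 9. It was lower in the FGF8 library on each day, and past 2-fold on day 3 (log2 fold change -1.62, interval -1.78 to -1.46) and day 9 (-1.13, interval -1.34 to -0.94).

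Neutral amino acid exchangers and glutamate transporters of the SLC1 family went different ways. Slc1a4 (ASCT1, which exchanges alanine, serine and cysteine) had 778 and 2705 normalized counts on day 0, 425 and 442 on day 3, and 549 and 593 on day 9. For Slc1a4 the log2 fold change was 1.80 on day 0 (interval 1.66 to 1.94) and 0.06 and 0.11 later, where both intervals included 0. Slc1a5 (ASCT2, a glutamine exchanger) differed little between treatments on day 0, with 1744 and 1983 normalized counts.

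Slc1a3 encodes the glutamate transporter GLAST and lies on chromosome 15 from 8663604 to 8741595. It had 10842 normalized counts in untreated and 1803 in FGF8-treated cells on day 0, 3702 and 2789 on day 3, and 2960.0 and 2216 on day 9. Untreated cells of day 0 were the highest and FGF8-treated cells of day 0 the lowest, a 6.01-fold difference (log2 fold change -2.59, interval -2.67 to -2.51). At the later days the log2 fold changes were -0.41 and -0.42. In these bulk samples, fewer cells that carry a transcript and less of it per cell cannot be told apart. Summed preadipocyte markers were also lower in the FGF8 library of each day, as given above. Endothelial markers summed to 1635 normalized counts in untreated and 76.8 in FGF8-treated cells on day 0, mostly from Kdr. Of these 7 markers, only Cldn5 was at 0 in the former and only Emcn in the latter. Markers of neurons and Schwann cells summed to 348 and 314 on day 0 and to 468 to 868 later. The part of other cell types in the lower members was not tested.

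Glycine and taurine carriers of the SLC6 family were the abundant members of that family. Slc6a9, which encodes the glycine transporter GlyT1 and lies on chromosome 4 from 117691703 to 117732395, had 614 and 2462 normalized counts on day 0, 963 and 856 on day 3, and 822 and 773 on day 9. The log2 fold change was 2.00 on day 0 (interval 1.85 to 2.16) and -0.17 and -0.09 later, and B4galt2 and Ccdc24 overlap the gene on the other strand. The taurine transporter gene Slc6a6 had 3937 and 4200.4 normalized counts on day 0, 3598 and 2434 on day 3, and 2542 and 3418 on day 9, and stayed within 2-fold on each day. Slc6a17, for a vesicular carrier of neutral amino acids, had 14.7 and 48.6 normalized counts on day 0, 111 and 23.2 on day 3, and 22.7 and 16.3 on day 9. It passed the rule as higher on day 0 (log2 fold change 1.66, interval 0.70 to 2.90) and as lower on day 3 (-2.21, interval -2.88 to -1.66), at counts that left wide intervals.

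Sodium-coupled glutamine and neutral amino acid carriers of the SLC38 family are neighbors on chromosome 15. No other protein-coding gene of the count files lies between Slc38a1, Slc38a2 and Slc38a4. Slc38a1 (SNAT1; 96469298 to 96541851) had 1188 and 3090.5 normalized counts on day 0, 28.0 and 6.32 on day 3, and 8.52 and 2.44 on day 9. It was 2.60-fold higher after FGF8 on day 0 (log2 fold change 1.38, interval 1.26 to 1.5), and was near the limit of detection later. Slc38a2 (SNAT2), which starts 43.4 kb away, had 7456 and 8638 normalized counts on day 0, 9581 and 8625 on day 3, and 7113 and 8072 on day 9, with log2 fold changes from -0.15 to 0.21. Slc38a4 (SNAT4), 294.8 kb further, had 239 and 88.3 normalized counts on day 0, 335 and 128 on day 3, and 149 and 98.4 on day 9, and was past 2-fold lower on day 0 (log2 fold change -1.43, interval -1.87 to -1.02) and day 3 (-1.38, interval -1.67 to -1.11). The 3 neighbors therefore stood on different sides on day 0, higher, level and lower.

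Among the intracellular and less studied SLC38 members, Slc38a10 had 4631 and 2809 normalized counts on day 0, 5959 and 3592 on day 3, and 3676 and 2801 on day 9. It was below the untreated library on each day without reaching 2-fold, at log2 fold changes of -0.72, -0.73 and -0.39. Slc38a7 had 840.2 and 1023 normalized counts on day 0, 905 and 379 on day 3, and 514 and 505 on day 9, and was 2.39-fold lower on day 3 (log2 fold change -1.25, interval -1.42 to -1.09). Slc38a9, the lysosomal arginine sensor, had 566 and 388 normalized counts on day 0, 533 and 452 on day 3, and 476 and 581 on day 9. Slc38a6 had 467 and 403 normalized counts on day 0, 467 and 418 on day 3, and 387 and 579.6 on day 9, and its locus overlaps Trmt5 on the other strand. Neither Slc38a6 nor Slc38a9 reached 2-fold on any day.

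The SLC43 family and the low-abundance glutamate transporter Slc1a6 hold further members that passed the rule. Slc43a1, which encodes LAT3, a carrier of large neutral amino acids, had 207 and 74.3 normalized counts on day 0, 442 and 312 on day 3, and 226 and 164 on day 9, with a log2 fold change of -1.47 on day 0 (interval -1.95 to -1.03). Slc43a3, which encodes a purine nucleobase carrier in spite of its family and is its neighbor on chromosome 2 at a distance of 68.5 kb, had 4981 and 4852 normalized counts on day 0, 5097 and 2235 on day 3, and 2467 and 1362 on day 9. Its log2 fold change was -0.04 on day 0, -1.19 on day 3 (interval -1.26 to -1.12) and -0.86 on day 9, so the 2 libraries of day 0 were alike and the FGF8 library was the lower one later. Slc1a6 had 30.8 and 10.2 normalized counts on day 0, 24.2 and 1.40 on day 3, and 17.0 and 4.06 on day 9, from at most 24 counts in a library.

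**Figure D2:**
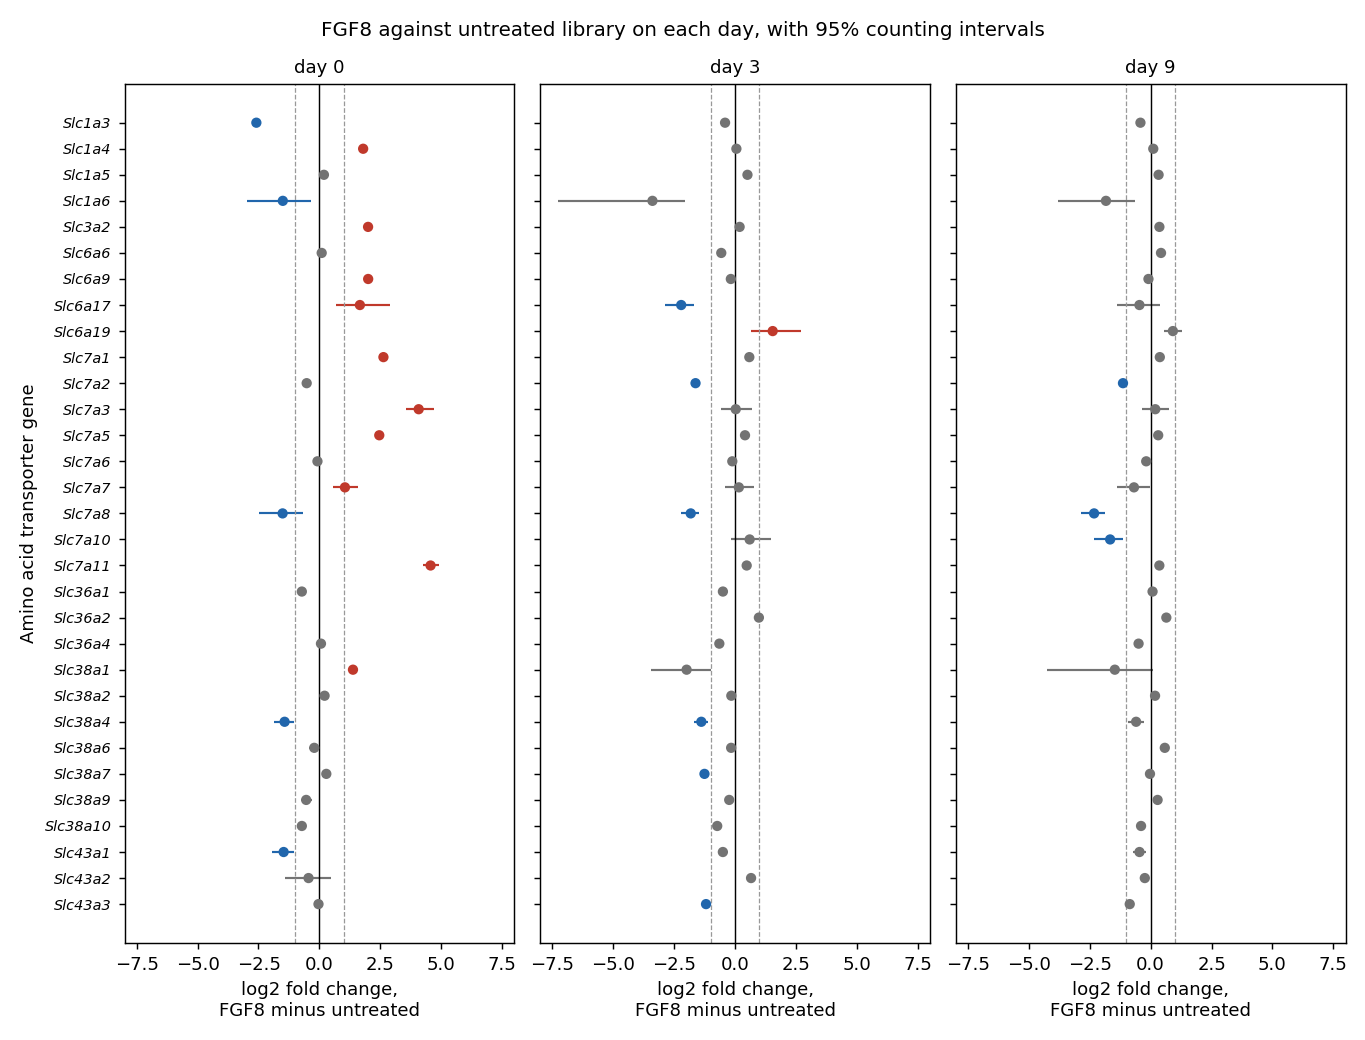
Log2 fold change of FGF8 over untreated cells (horizontal axis) for 31 amino acid transporter genes on day 0, day 3 and day 9, from 1 library each, with 95% counting intervals as lines. Red and blue mark genes at least 2-fold higher or lower whose pair averaged at least 20 normalized counts, dashed lines mark 2-fold, and no point is drawn where neither library has more than 3 counts. There are 10 red points on day 0, 1 (Slc6a19) on day 3 and 0 on day 9, while Slc7a8 is blue in each panel.

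At day 3 after the pretreatment, 1 of 30 members with enough counts was 2-fold or more above untreated in the FGF8 library and 6 were at least 2-fold lower, where all genes gave 3.8% and 12.1%. The higher member was Slc6a19, and the lower ones were Slc6a17, Slc7a2, Slc7a8, Slc38a4, Slc38a7 and Slc43a3. At day 9, none of 30 members was at least 2-fold higher, and Slc7a2, Slc7a8 and Slc7a10 were lower. Over all genes, 1.12% were higher and 8.74% lower on day 9. The median log2 fold change of the members was -0.16 on day 3 and 0.09 on day 9, beside 0.08 on both days over all genes.

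None of the 10 members that were higher on day 0 was at least 2-fold higher on day 3 or day 9. Among all genes, such calls also became fewer, from 7.27% on day 0 to 3.8% on day 3 and 1.12% on day 9. How many of all genes higher on day 0 stayed so was not counted. Slc7a11, Slc7a1, Slc7a5 and Slc3a2 kept log2 fold changes of 0.19 to 0.59 on day 3 and 0.31 to 0.38 on day 9, with counting intervals above 0. Slc1a4 and Slc7a3 had intervals that included 0 on both later days. Differences of the FGF8 effect between days were not tested, as each day has 1 library per treatment.

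**Figure D3:**
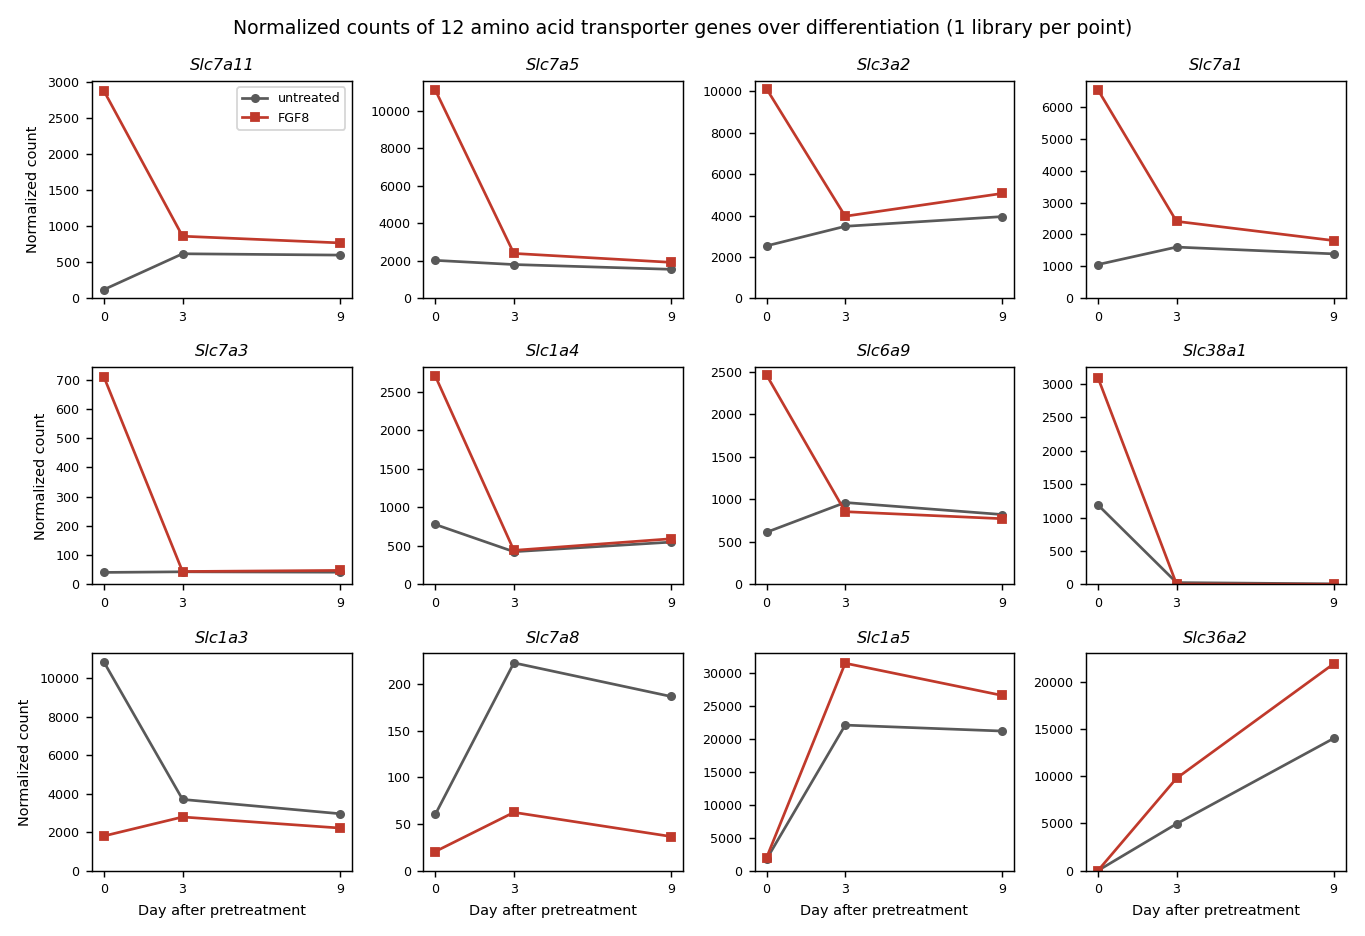
Normalized counts (vertical axes, each from 0) of 12 amino acid transporter genes against the day after pretreatment, with untreated cells in grey circles and FGF8-pretreated cells in red squares, 1 library per point. The first 8 genes have their highest value in the FGF8 library of day 0, Slc1a3 has its highest in the untreated library of day 0, Slc7a8 is lower after FGF8 throughout, and Slc1a5 and Slc36a2 are higher on day 3 and day 9 than on day 0.

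For FGF8 over the 3 days together, edgeR's quasi-likelihood test was run on all 6 libraries, and the days stood in for replicates with 2 residual degrees of freedom left. A difference that varies between days adds to the residual, so the test is weak for genes that differ on 1 day only. After Benjamini-Hochberg adjustment, 0 of 39 members tested passed, beside 0.0206% of 14569 genes higher and 1.25% lower. At an unadjusted p under 0.05 there were 8 members, all lower after FGF8. The share of all genes at this p was not counted. Of all genes called after adjustment, 3 were higher and 182 lower. The lowest adjusted p of edgeR among members was 0.0633, for Slc7a8 (log2 fold change -1.95, SE 0.30), and ranged from 5.3e-05 to 1 under the alternatives. DESeq2's Wald test called 4 members lower, namely Slc7a8, Slc7a2, Slc38a4 and Slc38a10. In either direction it called 1692 of 26264 genes. Without the libraries of day 0, edgeR called 7 members lower (Slc1a6, Slc7a2, Slc7a8, Slc36a4, Slc38a1, Slc38a10 and Slc43a3) and 1 higher (Slc36a2), of 37 tested. That fit called 2230 of 14367 genes in either direction. Without day 3 or without day 9, edgeR called 0 members and 0 of all genes.

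Differentiation was compared over the same fit, with the treatments standing in for replicates of a day. From day 0 to day 3, 8 of 39 members rose and 3 fell in edgeR's test, beside 26.2% and 19.8% of all genes. The rising members were Slc1a5, Slc6a13, Slc6a19, Slc7a8, Slc7a10, Slc36a2, Slc43a1 and Slc43a2, and the falling ones Slc1a4, Slc36a4 and Slc38a1. From day 0 to day 9, 8 rose and 4 fell, beside 29.2% and 24.8% of all genes. Slc7a15 was called in place of Slc43a1 among the rising members, and Slc1a2, Slc36a4, Slc38a1 and Slc43a3 fell. The median log2 fold change of the 39 members was 0.09 from day 0 to day 3 and -0.24 from day 0 to day 9, beside 0.07 and 0.04 over all genes.

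Between day 3 and day 9, edgeR called 0 of 39 members and 0.0618% of all genes higher and 0.00686% lower. At an unadjusted p under 0.05 there were 7 members, 2 higher and 5 lower, and the share of all genes at this p was not counted. DESeq2 called 0 members and 1319 of 26264 genes. Without the untreated or without the FGF8 library of day 0, edgeR called 2 members higher and 5 lower, of 42 and 43 tested. These fits called 3238 of 15353 and 3159 of 15307 genes in either direction.

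Slc36a2 encodes PAT2, the proton-coupled carrier of small amino acids that marks brown adipocytes, and lies on chromosome 11 from 55048922 to 55075939. It had 3 counts (4.41 normalized) in untreated cells and 0 in FGF8-treated cells on day 0, then 4953 and 9774 normalized counts on day 3 and 13998 and 21893 on day 9. Both libraries of day 0 were near 0, and the FGF8 library was the higher one on both later days. In untreated cells the level on day 3 was 1124 times that of day 0 (interval 384 to 5453) and on day 9 3177 times (1087 to 15405), and in FGF8-pretreated cells it was at least 2545-fold and at least 5700-fold higher, with the count of 0 set to a floor of 3. The rise passed edgeR's test after Benjamini-Hochberg adjustment on day 3 (adjusted p = 0.00249, range over alternatives 5.5e-32 to 0.0145) and day 9 (adjusted p = 0.00164, range 8.0e-40 to 0.00847). The FGF8 library exceeded the untreated one by a log2 fold change of 0.98 on day 3 (interval 0.93 to 1.03) and 0.65 on day 9 (0.62 to 0.67), short of 2-fold on both days. Summed adipocyte markers moved the same way, from 385843 in untreated to 663245 in FGF8-pretreated cells on day 3 and from 649168 to 752489 on day 9, and their part in this difference was not tested.

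The neighbors of Slc36a2 did not follow it. Slc36a1 encodes the lysosomal carrier PAT1 and lies 19.2 kb away, with Slc36a1os but no protein-coding gene of the count files between. Slc36a1 had 1003 and 608 normalized counts on day 0, 1373 and 973 on day 3, and 1003 and 1060.1 on day 9. Slc36a3, 6.38 kb away on the other side, had at most 2 counts in any library. Slc36a4 (PAT4, for proline and tryptophan; chromosome 9) had 1995 and 2085 normalized counts on day 0, 1103 and 706 on day 3, and 916 and 650.4 on day 9. Slc36a4 fell by 1.15 on the log2 scale from day 0 to day 3 (SE 0.23, edgeR with Benjamini-Hochberg adjusted p = 0.0161, range over alternatives 0.00023 to 0.119) and by 1.37 to day 9 (SE 0.23, adjusted p = 0.00839, range 8.1e-06 to 0.0786). Its call on day 3 was lost without the FGF8 library of day 3 (adjusted p = 0.119), and that on day 9 without the untreated (0.0536) or the FGF8 library (0.0786) of day 9.

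Slc1a5 encodes ASCT2 and lies on chromosome 7 from 16515265 to 16532731. From 1744 and 1983 normalized counts on day 0, it went to 22073 and 31459 on day 3 and to 21170.0 and 26566 on day 9. All 4 later libraries were above both of day 0. The level on day 3 was 12.7-fold that of day 0 in untreated cells (interval 11.9 to 13.4) and 15.9-fold in FGF8-pretreated cells (15.1 to 16.7). The log2 fold change over both treatments was 3.89 from day 0 to day 3 (SE 0.23, edgeR with Benjamini-Hochberg adjusted p = 0.00236, range over alternatives 5.5e-67 to 0.0166) and 3.71 to day 9 (SE 0.23, adjusted p = 0.00169, range 6.1e-62 to 0.0141). Between treatments, Slc1a5 differed by a log2 fold change of 0.19 on day 0, 0.51 on day 3 and 0.33 on day 9.

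Slc43a2 encodes LAT4, the facilitative carrier of large neutral amino acids, and lies on chromosome 11 from 75421362 to 75477630. It had 35.3 and 25.6 normalized counts on day 0, 389 and 616 on day 3, and 742 and 629 on day 9. The groups of day 0 and of the later days did not overlap. The log2 fold change was 4.10 to day 3 (SE 0.37, edgeR with Benjamini-Hochberg adjusted p = 0.00342, range over alternatives 4.9e-18 to 0.021) and 4.54 to day 9 (SE 0.37, adjusted p = 0.00207, range 1.4e-22 to 0.0166). Slc43a1 (LAT3) rose by 1.60 on the log2 scale to day 3 (SE 0.36, adjusted p = 0.0215, range 0.00067 to 0.148), a call lost without the untreated (0.0884) or the FGF8 library (0.148) of day 3. Slc43a3 fell by 1.42 on the log2 scale to day 9 (SE 0.31, adjusted p = 0.0173, range 6.0e-05 to 0.124), a call lost without the untreated (0.0756) or the FGF8 library (0.124) of day 9.

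Slc38a1 fell in both treatments, from 809 counts to 22 and 12 in untreated cells and from 2414 counts to 9 and 3 in FGF8-pretreated cells. Its level on day 9 was 0.00717 times that of day 0 in untreated cells (interval 0.00369 to 0.0126) and 0.000789 times in FGF8-pretreated cells (0.000163 to 0.00231). edgeR gave a log2 fold change of -7.05 to day 3 (SE 0.99, Benjamini-Hochberg adjusted p = 0.0073, range over alternatives 5.6e-19 to 0.0434) and -8.52 to day 9 (SE 1.06, adjusted p = 0.00432, range 2.0e-24 to 0.028). Its neighbor Slc38a2 had no such course and remained the most abundant SLC38 member per kb in all 6 libraries. Slc1a4 also fell to day 3, by 1.77 on the log2 scale (SE 0.49, edgeR with Benjamini-Hochberg adjusted p = 0.0382, range 1.3e-05 to 0.221), a call that was lost without the untreated library of day 3 (0.0778) or of day 9 (0.0513) and without the FGF8 library of day 3 (0.221) or of day 9 (0.052).

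Further members rose from counts near 0. Slc6a19, which encodes the neutral amino acid transporter B0AT1 of gut and kidney, had 1.47 and 0 normalized counts on day 0, 14.0 and 42.8 on day 3, and 70.3 and 133 on day 9, at least 34.7-fold higher on day 9 in FGF8-pretreated cells. In edgeR's test Slc6a19 rose to day 3 with a Benjamini-Hochberg adjusted p = 0.0152 (range over alternatives 0.000886 to 0.111), a call lost without the untreated (0.052) or the FGF8 (0.111) library of day 3, and to day 9 with 0.00478 (5.56e-06 to 0.033), held with each library left out. Slc7a10, which encodes Asc-1, a light subunit known as a surface marker of white adipocytes, had 0 counts in both libraries of day 0, 24.2 and 37.2 normalized counts on day 3, and 84.5 and 26.0 on day 9. In untreated cells Slc7a10 was at least 5.49-fold higher on day 3 and at least 19.2-fold on day 9, and in FGF8-pretreated cells at least 9.69-fold and at least 6.77-fold. Its edgeR adjusted p was 0.0237 to day 3 (range over alternatives 0.000441 to 0.0911), lost without the FGF8 library of day 3 (0.0911), and 0.0151 to day 9 (6.18e-05 to 0.0572), lost without the untreated library of day 9 (0.0572). The log2 fold change of FGF8 over untreated cells on day 9 was -1.66 (interval -2.31 to -1.13), and Lrp3 overlaps Slc7a10 on the other strand. Slc6a13, a GABA and taurine transporter gene, and Slc7a15 were outside the rule for named genes and are named after their values were seen, as is Slc1a2. Slc6a13 had 1.47 and 0 normalized counts on day 0, 36.9 and 70.2 on day 3, and 88.0 and 130.1 on day 9. For Slc6a13 the edgeR adjusted p was 0.00749 to day 3 (range over alternatives 0.00016 to 0.0618), lost without the FGF8 library of day 3 (0.0618), and 0.00383 to day 9 (4.09e-06 to 0.0271), held with each library left out.

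Slc7a15 reached at most 29 counts in a library, and its call on day 9 had an adjusted p of 0.0494 in edgeR (range over alternatives 0.0211 to 0.141), held in 1 of 6 fits with a library left out, the one without the untreated library of day 9. Slc1a2 (GLT-1) went the other way, from 16.2 and 12.8 normalized counts on day 0 to 2.84 and 1.63 on day 9. The change to day 9 was -2.66 on the log2 scale (SE 0.72, edgeR with Benjamini-Hochberg adjusted p = 0.0303, range over alternatives 0.0216 to 0.232), at no more than 11 counts in any library, and the call held in 1 of 6 fits with a library left out, the one without the untreated library of day 0. For Slc7a8, which rose by 1.82 on the log2 scale to day 3 (SE 0.37, edgeR with Benjamini-Hochberg adjusted p = 0.017, range 0.00221 to 0.219) and by 1.31 to day 9 (SE 0.37, adjusted p = 0.0342, range 0.0142 to 0.313), the day 3 call was lost without the untreated library of day 3 (0.102) or day 9 (0.0526) or the FGF8 library of day 3 (0.137). Its day 9 call held in 1 of 6 fits with a library left out, the one without the FGF8 library of day 0. Slc1a5, Slc36a2, Slc43a2 and Slc38a1 were called at both days in all 6 such fits.

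The FGF8 library of day 0 weighed on the day comparison of the members that were high there. Slc7a11 had a log2 fold change of -0.23 from day 0 to day 3 (edgeR with Benjamini-Hochberg adjusted p = 0.883), and of 2.45 without that library (adjusted p = 0.000197). Slc7a1 and Slc6a9 turned in the same way, to 0.72 and 0.69 on day 3, and Slc3a2 turned to 0.72 on day 9. Slc1a3 turned to 0.70 on day 3 without the untreated library of day 0. A common change over days is therefore not given for these 5 genes.

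Per kb of exon, all 62 members together summed to 6389 normalized counts per kb in untreated and 11188 in FGF8-treated cells on day 0, 11292 and 12860 on day 3, and 11676 and 14324 on day 9. In untreated cells of day 0 no gene dominated: Slc43a3 (12.6% of the sum), Slc38a2 (12%) and Slc1a3 (11.6%) led at similar levels. After FGF8 on day 0, Slc7a5 (25.8%) and Slc3a2 (19.4%) led, and the SLC7 family rose from 17.1% to 37.5% of the sum. From day 3 on, Slc1a5 led each library with 33.5% to 45.2% of the sum. Slc36a2 came next with 8.83% and 15.3% on day 3 and 24.1% and 30.8% on day 9, untreated and FGF8 in turn, although on day 3 in untreated cells it was level with Slc38a2 (8.75%). The exon length used is the union of annotated exons, so a gene with a long exon that the cells do not use is set too low.

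**Figure D4:**
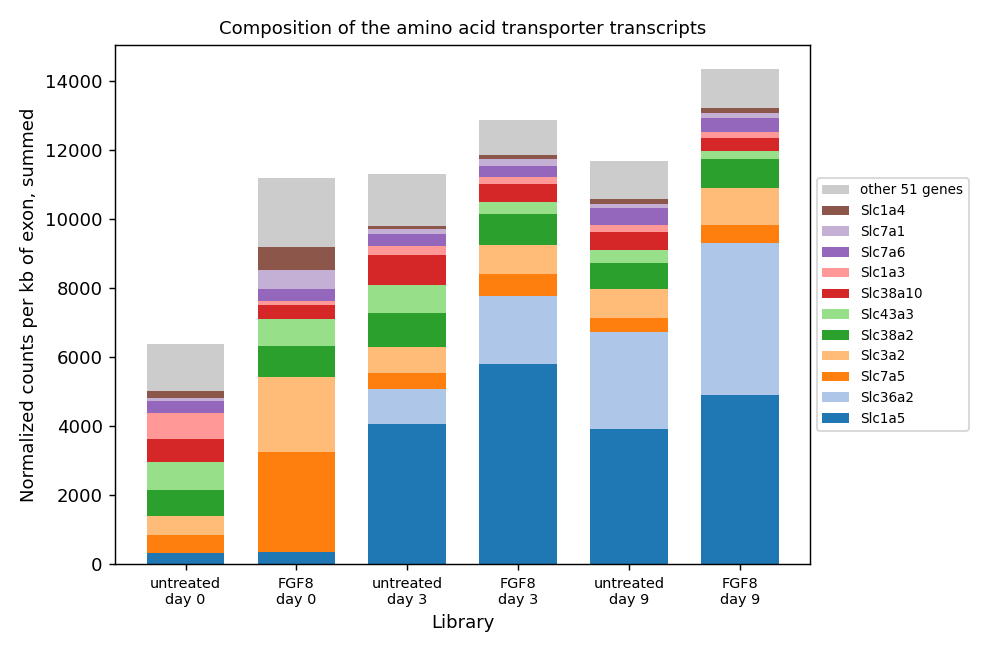
Summed normalized counts per kb of exon (vertical axis) of the 62 amino acid transporter genes in each of the 6 libraries, with 11 genes in color and the other 51 in grey. Slc7a5 and Slc3a2 fill 25.8% and 19.4% of the bar in the FGF8 library of day 0, and Slc1a5 and Slc36a2 together fill the largest parts of the 4 later bars.

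Genes around the transporters were counted from lists of amino acid metabolism, which were chosen with earlier results of these data known. Of 25 genes of the amino acid response (ATF4 and its known targets, without transporters), 24 were 2-fold or more above untreated in the FGF8 library of day 0 and 0 lower, with a median log2 fold change of 2.05. Over all genes, 7.27% were higher and 10.8% lower on day 0, and the shares of the later days are given above. Atf4 itself had 4932 and 18958 normalized counts on day 0, 7042 and 10602 on day 3, and 10032 and 14919 on day 9, and Psat1, an enzyme of serine synthesis, had 4079 and 17598 on day 0. At day 3, 1 of the 25 was higher and 0 lower (median 0.56), and on day 9 0 were higher and 1 lower (median 0.50). edgeR's test of a shared FGF8 effect called 0 of the 25.

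Of 28 genes of branched-chain amino acid breakdown, 1 was higher and 2 were lower on day 0, 2 and 0 on day 3, and 0 and 1 on day 9. In edgeR's test, 20 rose and 1 fell to day 3, and 21 rose and 1 fell to day 9, with median log2 fold changes of 1.64 and 1.67. By the same test, 26.2% of all genes rose and 19.8% fell to day 3, and 29.2% rose and 24.8% fell to day 9. Hadha, a subunit of the mitochondrial trifunctional protein, went from 4411 and 3396 normalized counts on day 0 to 78350 and 96515 on day 9. Of 11 glutamine and glutamate enzymes with enough counts, 4 were higher after FGF8 on day 0 and 0 lower, 1 and 1 on day 3, and 0 and 1 on day 9. To day 3, 4 rose and 2 fell, and Glul, the glutamine synthetase, went from 990.0 and 955 normalized counts on day 0 to 13673 and 17918 on day 3.

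Of 17 genes of glutathione synthesis and use, which cystine uptake feeds, 1 was higher and 3 lower after FGF8 on day 0, 0 and 5 on day 3, and 0 and 2 on day 9, and edgeR called 1 lower over the days. Mgst1, a microsomal glutathione transferase, had 4493 and 1110.0 normalized counts on day 0. Of 31 genes of lysosomal amino acid sensing, 3 were higher and 2 lower on day 0, 0 and 2 of 30 on day 3, and none of 30 on day 9. Of 20 amino acid transporters of other families, 1 was higher and 0 lower on day 0, 1 and 1 on day 3, and 0 and 1 on day 9. In edgeR's test, 10 of 23 rose and 6 fell to day 3, beside 26.2% and 19.8% of all genes. Slc25a39, a mitochondrial glutathione carrier, rose from 1748 and 2842 normalized counts on day 0 to 7437 and 13460 on day 3.

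The 4 genes named for the opposite strand carry little of this signal. Slc6a19os had 0 counts in all 6 libraries, and Slc36a1os and Slc36a3os had at most 2. Slc7a6os, a protein-coding gene next to Slc7a6 that is no transporter, had 897 to 1314 normalized counts and log2 fold changes of -0.22, 0.28 and -0.02 on day 0, day 3 and day 9.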

How the data were processed

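Poly(A) RNA of 6 cultures was sequenced, 1 library per condition. The authors used a stranded mRNA kit, ran TrimGalore on the reads, mapped these to GRCm39 (mm39) by HISAT2, and deposited featureCounts' raw gene counts, not normalized. Tool versions, the annotation, the strand setting and the treatment of multiply mapped reads are not given in the sources used here, so genes that overlap or share sequence are uncertain. The reads carry no molecular identifiers, so intervals and floors cover counting error only. Conditions were taken from the sample labels.

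Counts were divided by DESeq2 (1.42.0) median-of-ratios size factors over the 6 libraries. Fold changes are differences of log2(normalized count + 1), called at 2-fold with a pair mean of at least 20 normalized counts. A library at 0 was set to a floor of 3 counts. Effects of FGF8 and of day were tested with edgeR's quasi-likelihood test (4.0.16; TMM, filterByExpr, treatment and day as factors, Benjamini-Hochberg over all 14569 genes tested, adjusted p under 0.05), whose standard errors were derived from the F statistic. The fit was run on simulated data in which genes changed alike in every library of a treatment or day. That run says nothing of an FGF8 effect that differs between days. Nothing says that the libraries came from independent cultures. With 1 library per condition, the p-values set an effect against how far FGF8 differences vary between days. They do not measure a spread between cultures. Coordinates, exon lengths and promoters came from GENCODE M39 and the GRCm39 genome, which held all 62 members.

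Members and gene lists were chosen with earlier results of these data known. Members averaging at least 100 normalized counts, past 2-fold on a day or called for FGF8 are given in every library, and list genes only among the 3 most abundant of a list. The alternatives were TMM, total counts or pair size factors, no filter or a pair mean above 100, 4-fold and 1.5-fold rules, pseudocounts of 5 and 0.5, DESeq2's Wald test, DESeq2 size factors in edgeR, no block, and leaving out each day or library. R 4.3.3 and Python 3.11.15 were used. The result of 1 single member is not reported here.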

Additional observations from a re-analysis of the deposited data

Results flagged for a closer look

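The sign of the FGF8 difference turned between days for the 4 amino acid transporter genes below, which passed 2-fold on at least 1 day and had, on another day with a pair mean of 20 or more, a counting interval wholly on the other side of 0. These differences between days were not tested, since each day has 1 library per treatment. Slc6a17 stood at a log2 fold change of 1.66 on day 0 but -2.21 on day 3, past 2-fold on both days. Slc7a7 had 1.05 on day 0 and -0.68 on day 9. Slc38a7 had -1.25 on day 3 and 0.28 on day 0. Slc6a9 had 2.00 on day 0 and -0.17 on day 3, where its counting interval reached from -0.30 to -0.04. The sign also turned where the other day missed those limits, as for Slc38a1 (1.38 on day 0, and -1.99 on day 3 at a pair mean under 20) and Slc7a10 (-1.66 on day 9, and 0.60 on day 3 with an interval that included 0). Groups held 1 library each, so no library could be compared with others of its group.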

How the results depend on the processing

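No paired analysis was possible because the labels give no replicate numbers to pair by. Libraries of the same day were matched by a day term in the test of the shared FGF8 effect, in which edgeR called 185 of all genes with that term and 0 without it, and 0 members in both fits (8 of 39 and 6 of 35 at an unadjusted p under 0.05). The share of all genes at an unadjusted p was not counted. With 1 library per condition, differences of a day cannot be set against the spread between cultures, and low counts limit Slc1a6, Slc6a17, Slc7a10 and Slc38a1. Total counts moved the median log2 fold change of all genes at day 3 by -0.11, and TMM, total counts and pair size factors left the number of members past 2-fold within 1.5 times on each day. The cause of the changes below was not tested beyond what each setting does by construction. At day 0, the number of members past 2-fold was 3 lower with a mean of at least 100, 16 higher and 16 lower without a filter, and 5 higher and 1 lower at 4-fold. Over all genes, 9.12% were lower with that mean. Without a filter, where all 62 members count, 8.88% of all genes were higher and 10.9% lower. At 4-fold 1.98% were higher and 4.42% lower. At day 3 the number of members was 0 higher with a mean of at least 100, 4 higher and 18 lower without a filter, 6 higher at 1.5-fold, and 0 higher and 1 lower at 4-fold. Over all genes, 3.12% were higher with that mean, and 4.79% higher and 12.2% lower without a filter. At 1.5-fold 15.6% of all genes were higher, and at 4-fold 0.264% were higher and 2.08% lower. At day 9 the number of members was 3 higher and 8 lower without a filter, 2 higher and 6 lower at 1.5-fold, and 1 lower at 4-fold. Over all genes, 2.37% were higher and 9.84% lower without a filter. At 1.5-fold 5.95% of all genes were higher and 14.4% lower, and at 4-fold 2.71% were lower. For the shared FGF8 effect, DESeq2 called 4 members lower and edgeR without a filter 1, and fits without 1 day called 0 to 1 higher and 0 to 7 lower, the highest without day 0. Over all genes, DESeq2 called 1692 of 26264 and edgeR without a filter 419 of 19835. The fit leaving out day 0 called 2230 of 14367 genes. In the day tests that follow, DESeq2 called 6916 of 26264 genes to day 3 and 8130 to day 9, in either direction. The fit without the treatment block called 5733 of 14569 genes to day 9. For both days, more of all genes were called without the untreated library of day 0 than in the full fit. Fewer were called without a library of the later day. These member counts alone therefore do not set the members apart from all genes. From day 0 to day 3, DESeq2 called 5 lower, and leaving out 1 library gave 3 to 12 higher (5 without the untreated and 3 without the FGF8 library of day 3) and 1 to 14 lower (14 without the untreated and 5 without the FGF8 library of day 0, 1 without the FGF8 library of day 3). From day 0 to day 9, DESeq2 called 9 lower and the fit without the treatment block 2, and leaving out 1 library gave 6 to 9 higher and 1 to 16 lower (16 without the untreated library of day 0, 1 without either library of day 9). From day 3 to day 9, leaving out 1 library gave 0 to 2 higher and 0 to 5 lower, the highest without either library of day 0. For genes whose sign turned, leaving out 1 library gave log2 changes to day 3 from -1.48 to 0.70 for Slc1a3 (highest without the untreated library of day 0), from -1.44 to 0.69 for Slc6a9, from -1.42 to 0.72 for Slc7a1 and from -1.70 to 2.45 for Slc7a11, and to day 9 from -0.997 to 0.72 for Slc3a2 and from -1.83 to 2.32 for Slc7a11, the last 5 highest without the FGF8 library of day 0. Of the other values for single genes under the alternatives, 1476 kept their direction and side of the threshold or stayed within the counting interval, 62 gained and 28 lost a call, and 25 left the counting interval of a fold change under another scaling.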
